A study of Drosophila melanogaster with 12 samples.

Results

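Chromosome 4 of Drosophila melanogaster is the small dot chromosome, and 55 of its genes were followed here across 12 arrays of larval eye discs. The members are the genes that Release 6 of the genome annotation puts on chromosome 4 and that have a probe set naming that gene alone. The genes ey, toy, ci, sv, onecut, Rnf11, Actbeta, PlexA, PlexB, Eph and Ephrin were left out by the rule. The 55 members, with 66 probe sets, stand among 11952 genes named on the array by a probe set of 1 gene. The annotation holds 114 genes on chromosome 4, of which 80 are protein-coding, and 15 of these 80 have no such probe set and were not analysed here.

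The chromosome is known for being packed largely as heterochromatin while still carrying active genes. Its genes lie among transposon remnants and bind the heterochromatin protein HP1a and Pof, an RNA-binding protein that coats this chromosome and raises the output of its genes. It normally does not recombine, so its genes are inherited together. The chromosome carries genes with very different roles, from a subunit of the mitochondrial ATP synthase to synaptic proteins and developmental transcription factors.

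RNA came from eye imaginal discs of wandering larvae with the antennal part removed, and all 4 groups of 3 arrays carry w. The Runt group expressed the transcription factor Runt from UAS-Run under ro-Gal4, a driver made from regulatory DNA of rough, and the Runt G163R group expressed Run[G163R] under the same driver. The Runt experiment, made of these groups, had no array without a Runt transgene. The sens mutant discs were homozygous for sensDF2RES and for sensE1, and the control discs carried 1 copy of each over a wild-type chromosome. The labels give no genotype for chromosome 4. They also do not say whether replicates are separate dissections, so a p-value here reflects only how far these arrays scatter, and that scatter may be technical.

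The values are the authors' log2 expression values. Values below about 3 form a dense floor in which differences are compressed. Arrays of 1 group correlated at 0.993 to 0.998, and arrays of different experiments at 0.976 to 0.986. The eye disc markers gl, so, eya and dac exceeded 10 on every array, with gl between 11.25 and 12.64. The transcript of sens stood at 10.78, 10.36 and 10.61 in arrays labelled sens mutant, against 8.96, 9.30 and 9.61 in controls. Since no label states what the alleles do to the transcript, directions refer to arrays as labelled. No probe set is named for run, so the Runt labels could not be checked by its transcript.

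Most chromosome 4 genes were well above the floor in eye discs. Of the 55 members, 20 had a mean over the 12 arrays above 10, 18 lay between 5 and 10, 8 between 3 and 5, and 9 below 3. The median level of the members was 8.41, while that of the genes on the other arms ranged from 4.43 on 2L to 6.02 on the X, and 69.1% of members had a mean above 5, against 48.1% to 54% of genes on those arms. These are levels of different probe sets and are given as a description only. In all, 34 members exceeded 5 on every array and 7 stayed below 3 on every array.

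The brightest member probe set was that of ATPsynbeta, the catalytic beta subunit of ATP synthase, with a mean of 13.79. CG31997 followed with 13.11 and eIF4G1, the translation initiation scaffold, with 12.27. Next were Crk, an SH2 and SH3 adaptor, gw, the GW182 protein of microRNA silencing, the calsyntenin gene Cals and the ankyrin gene Ank, with means of 12.14, 12.03, 11.78 and 11.77. At the other end stood mGluR, the metabotropic glutamate receptor (2.20), Gat, the GABA transporter (2.23), and NfI, a nuclear factor I homologue (2.29). Together with dati, a zinc-finger gene (2.40), these 3 did not pass the filter on low values, so 51 of the 55 genes and 60 of the 66 probe sets were tested.

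**Figure D1:**
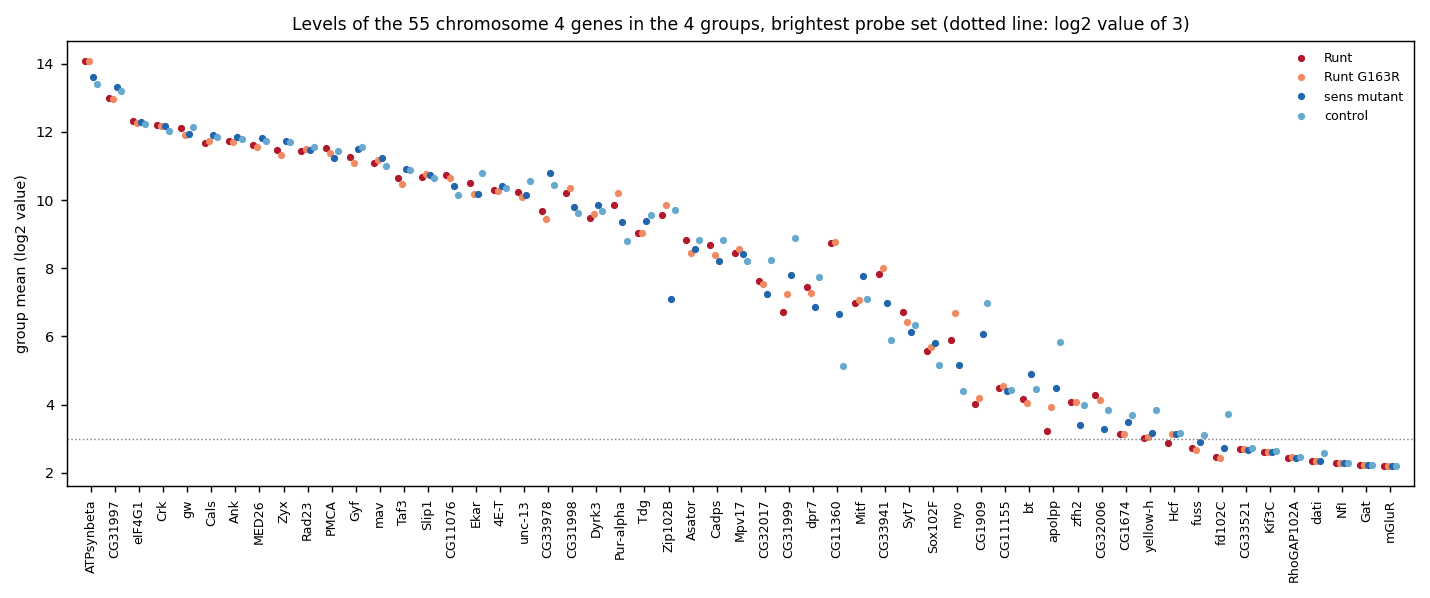
The vertical axis gives the mean log2 value of each of 55 chromosome 4 genes (brightest probe set) in Runt, Runt G163R, sens mutant and control discs, each point standing for 3 arrays; genes are ordered by their mean over 12 arrays. Group means lie close together for the bright genes and are most spread for Zip102B, CG31999, CG11360, CG33941, CG1909, myo and apolpp.

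Set against Runt G163R, wild-type Runt changed none of the 51 tested members past the threshold. Of the 60 probe sets tested 0 were called at an adjusted p under 0.05 in limma, and 0.0436% of all 11470 probe sets tested were. At an unadjusted p under 0.05 there were 5 of 60 (8.33%), against 6.36% of all probe sets. The differences (log2, Runt minus Runt G163R) were spread evenly, 26 of 51 genes above 0 and 25 below, with a median of 0.0041 against -0.0081 for all 8211 genes tested. In 41 of 51 genes the difference was smaller than 0.25.

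The lowest difference was that of myo, myoglianin, a TGF-beta family ligand. It stood at 6.30, 5.99 and 5.40 in Runt discs, against 6.38, 6.53 and 7.14 in Runt G163R discs, a difference of -0.79 (SE 0.364, adjusted p = 0.791). Every Runt array was below every Runt G163R array, but the spread within the groups was of the same order as the difference. Pur-alpha, a single-stranded nucleic acid binding protein, stood at 9.94, 9.88 and 9.74 in Runt discs, against 9.94, 10.26 and 10.42 in Runt G163R discs (difference -0.36, SE 0.125, adjusted p = 0.712). For Hcf, a chromatin coactivator, the difference was -0.28 (adjusted p = 0.775) between values in or beside the floor. These 3 probe sets, all lower with Runt, were the only ones of 60 whose groups did not overlap (5%, against 4.74% of all probe sets lower without overlap and 9.44% in either direction).

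Other negative differences were those of apolpp at -0.71, CG31999 at -0.53 and the zinc transporter gene Zip102B at -0.28, none with an adjusted p below 0.774. The 6 largest positive differences were 0.38 for Asator, a tau-tubulin kinase, 0.31 for the kainate-type glutamate receptor gene Ekar, 0.30 for the synaptotagmin gene Syt7, 0.28 for Cadps, 0.22 for CG33978 and 0.17 for the TFIID subunit gene Taf3. Their adjusted p values were 0.765 or more. Single arrays set the size of several of them: without Runt G163R replicate 1 the difference of Asator was 0.21, of Ekar 0.16, of Syt7 0.001, of Cadps 0.19 and of CG33978 0.13. Without Runt replicate 3 the difference of Taf3 was 0.045, of CG31999 -0.34 and of Zip102B -0.17, and without Runt G163R replicate 2 that of apolpp was -0.085. The mean over both probe sets of CG33978 differed by 0.01. Several of these are genes of neurons and synapses, but in that list of 9 tested members 6 differences lay above 0 and 3 below, with a median of 0.16 and none called. Without Runt replicate 3, 119 probe sets were called (1.04%), again with 0 of the 60 among them. With array weights 2 were called, Pur-alpha (-0.38, adjusted p = 0.0362) and Cadps (0.37, adjusted p = 0.0487), and 4.06% of all probe sets.

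In the sens comparison chromosome 4 genes changed in both directions. Of 60 tested, 15 were called (25%, against 16.9% of all probe sets tested), 8 higher in sens mutant discs (13.3%, against 11.6% of all) and 7 lower (11.7%, against 5.3% of all). By the brightest probe set of each gene, 6 genes rose and 7 fell among 51, which is 25.5% in all, against 19.3% of all 8211 genes tested (13.4% higher and 5.97% lower). By arm the share called was 15.8% on 2L, 16.1% on the X, 17.7% on 2R, 21.8% on 3R and 23.4% on 3L. With the filter at the 60th percentile, 30.4% of member probe sets were called, against 26.5% of all. With no filter the shares were 19.7% and 8.09%. Called and at least 2-fold apart were 6 of the 60 probe sets (10%, against 4.18% of all). By gene this share was 7.84% of members, and 2.74% on 2L to 6.75% on 3L among the other arms. At an unadjusted p under 0.05 there were 28 (46.7%, against 30.9% of all). These arrays measure whole discs, so fewer cells of a type and less RNA per cell cannot be told apart. The groups did not overlap for 25 of 60 probe sets (41.7%, against 38% of all).

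The median difference of the 51 genes was -0.02 (log2, sens mutant minus control), against 0.07 for all genes tested, with 24 members above 0 and 27 below. The median level over the same genes, which is that of the gene in the middle of each array, was 8.37, 8.36 and 8.38 in sens mutant discs, against 8.81, 8.96 and 8.91 in controls, without overlap. The middle gene was Mpv17 or Asator on mutant arrays, and CG31999, Cadps or Pur-alpha on control arrays. This gap is thus between different single genes and is not a shift shared by the members. Within the Runt group alone this level ranged from 8.64 to 9.05. Over all genes tested that level was 7.96, 7.91 and 7.94 in sens mutant discs, against 7.63, 7.80 and 7.85 in controls. The direction of small differences depended on the scaling: with the median of the tested probe sets of each array set equal, the median of all probe sets moved to -0.137 and that of the members to -0.188, and 6 member probe sets were called higher and 17 lower. Of the 24 genes above 0, 11 then turned below 0, among them Slip1, Cals, 4E-T, Zyx, Taf3, MED26, Crk, Ank and eIF4G1. Under 1 or more of 22 settings the sign changed for 19 of the 51 genes, of which none was called. After a second quantile normalization the split was 6 higher and 9 lower. Without sens mutant replicate 1 the count was 8, with 2 higher and 6 lower, and without control replicate 1 it was 2 higher and 10 lower.

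**Figure D2:**
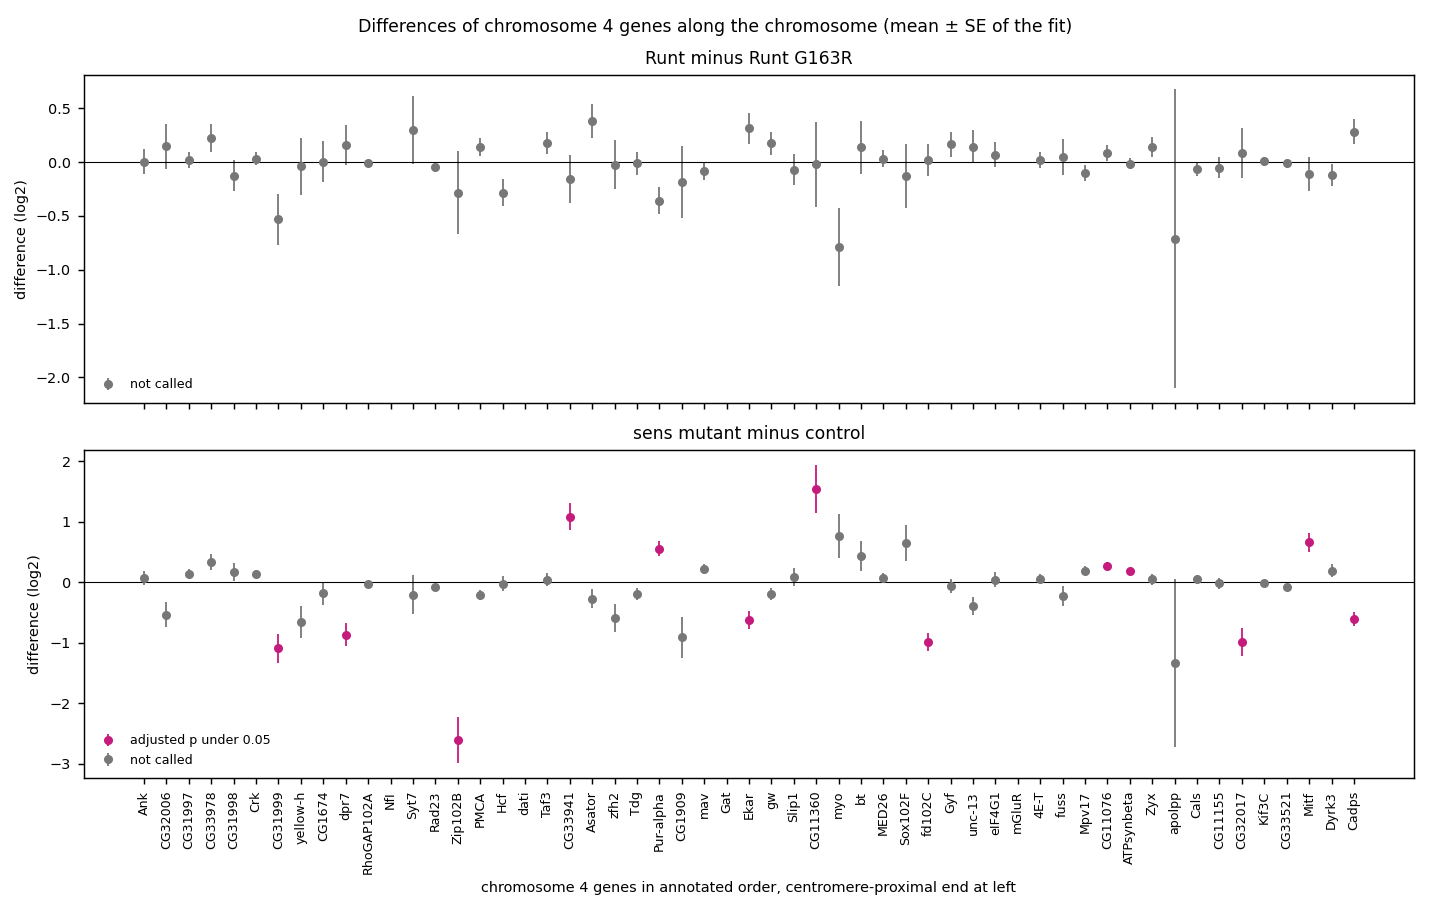
Differences (log2, fitted mean ± SE, 3 arrays a group) of the 51 tested chromosome 4 genes in annotated order for Runt minus Runt G163R (above) and sens mutant minus control (below), on axes of different range; coloured points passed an adjusted p of 0.05, and the 4 gene names without a point were not tested. No gene was called in the Runt comparison, and in the sens comparison the called genes, from Zip102B at -2.61 to CG11360 at 1.55, are scattered along the chromosome.

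Called genes did not gather in one stretch. In 5 consecutive windows of 11 genes, starting at the centromere-proximal end, the numbers of genes called higher were 0, 1, 2, 1 and 2, and those called lower were 2, 1, 1, 1 and 2. The median difference by window was -0.03, -0.20, 0.15, 0.05 and -0.01. Across the 50 pairs of neighbouring tested genes the differences correlated at 0.061 in the sens comparison and at -0.13 in the Runt comparison, given as a description over genes that share the same arrays. The sign was shared by 31 and 24 of the 50 pairs. The single neighbouring pair of called genes was CG11076 and ATPsynbeta, between which the annotation has no other protein-coding gene.

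Zip102B had the largest difference among the tested members in the sens comparison. This gene encodes a member of the ZIP family of zinc transporters. It stood at 6.87, 8.18 and 6.28 in sens mutant discs, against 9.73, 9.92 and 9.51 in controls, and it fell by 2.61 (SE 0.385, adjusted p = 0.0018). All 3 mutant arrays were below all 9 others of the series, with 9.56 ± 0.206 in Runt discs and 9.85 ± 0.231 in Runt G163R discs (SD, n = 3 each). The fall was called in all 23 alternatives, with differences of -3.15 to -2.19. Rad23 and PMCA, the neighbouring members, did not pass the test (-0.08 and -0.22). The second probe set of PMCA differed by 0.28 without overlap (adjusted p = 0.128), and its dimmest by -0.08. Rnf11, left out by the rule, lies between Zip102B and PMCA.

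Among the neuronal and synaptic members, 3 of 9 tested genes fell, none rose, and the median difference was -0.27. Of all genes tested, 5.97% fell and 13.4% rose, and these shares are the background for each list of genes, members or markers. Cadps, the calcium-dependent activator of dense-core vesicle release, stood at 8.27, 8.23 and 8.14 in sens mutant discs, against 8.80, 8.96 and 8.72 in controls. It fell by 0.62 (SE 0.116, adjusted p = 0.00636), while its dimmer probe set was not called (-0.46, adjusted p = 0.354). The mean of both probe sets, as an alternative, missed the threshold (adjusted p = 0.0736).

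dpr7, an immunoglobulin-domain gene of the Dpr family of cell surface proteins, stood at 6.74, 6.96 and 6.87 in sens mutant discs, against 7.54, 7.62 and 8.03 in controls. It fell by 0.87 (SE 0.188, adjusted p = 0.0117), without overlap between the groups, and was called in all 23 alternatives. Ekar, named for a kainate receptor enriched in the eye, stood at 10.10, 10.33 and 10.07 in sens mutant discs, against 10.69, 10.75 and 10.94 in controls. It fell by 0.63 (SE 0.146, adjusted p = 0.0166), and the call was lost in 3 alternatives, among them those without sens mutant replicate 1 (adjusted p = 0.0602) and without sens mutant replicate 3 (adjusted p = 0.0592).

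unc-13, which primes synaptic vesicles, also separated the groups, at 10.26, 10.21 and 10.003 in sens mutant discs against 10.40, 10.64 and 10.62 in controls, but missed the threshold (-0.40, SE 0.150, adjusted p = 0.101). It was called with array weights (adjusted p = 0.039), without Runt G163R replicate 1 (0.0365) and with the medians of the tested probe sets set equal (0.0108). Asator also separated the groups and was not called (-0.27, adjusted p = 0.281). The others of the list, Syt7 (-0.20), the kainate receptor gene CG11155 (-0.02), Slip1 (0.08) and Cals (0.06), did not pass the test. The dimmer probe set of CG11155 differed by -0.39 without overlap and was not called either (adjusted p = 0.157).

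Genes listed as brain markers were also lower in the sens comparison. Of the 7 brain and neuroblast markers, 6 were called lower in sens mutant discs and none higher, with a median difference of -1.27. The summed level of the list (log2 of the summed linear values) was 9.72 to 9.86 in sens mutant discs, against 10.9 to 11.1 in controls. In the Runt experiment it was 9.91 to 10.2. The dopa decarboxylase gene Ddc was at 6.93, 6.95 and 6.40 in sens mutant discs, against 9.76, 9.52 and 9.23 in controls. In the Runt experiment the brain markers did not all stand alike. Ddc averaged 4.56 in Runt and 4.31 in Runt G163R discs, below its sens mutant mean of 6.76. The means of insc were also below its sens mutant mean in both groups. Those of mira, ase, dpn and pros were above their sens mutant means in both groups, and those of wor lay in the floor. Cadps averaged 8.68 and 8.40 in Runt and Runt G163R discs, above its sens mutant mean of 8.21. No marker of the list was below 3 on every array, though the neuroblast gene wor was below 3 on all 3 sens mutant arrays. Of the 5 antennal markers 4 were called lower and none higher. Dll was at 6.78, 6.64 and 6.83 in sens mutant discs, against 8.44, 8.84 and 8.51 in controls. In the Runt experiment it was between 4.61 and 5.97. Whether pros (-1.27), listed for brain, and salm (-1.54), listed for antenna, changed in the eye disc itself was not tested. Of 5 glial markers 2 were higher, wrapper (1.29, adjusted p = 0.000223) and moody (0.41, adjusted p = 0.0206), with a median difference of 0.39 over the list and none lower. Of the 9 eye disc genes sens was called higher, and boss (-4.04, adjusted p = 2.42e-05) and gl (-0.47, adjusted p = 0.0127) lower. The part of such tissue in the falls of Cadps, dpr7 and Ekar was not tested.

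**Figure D3:**
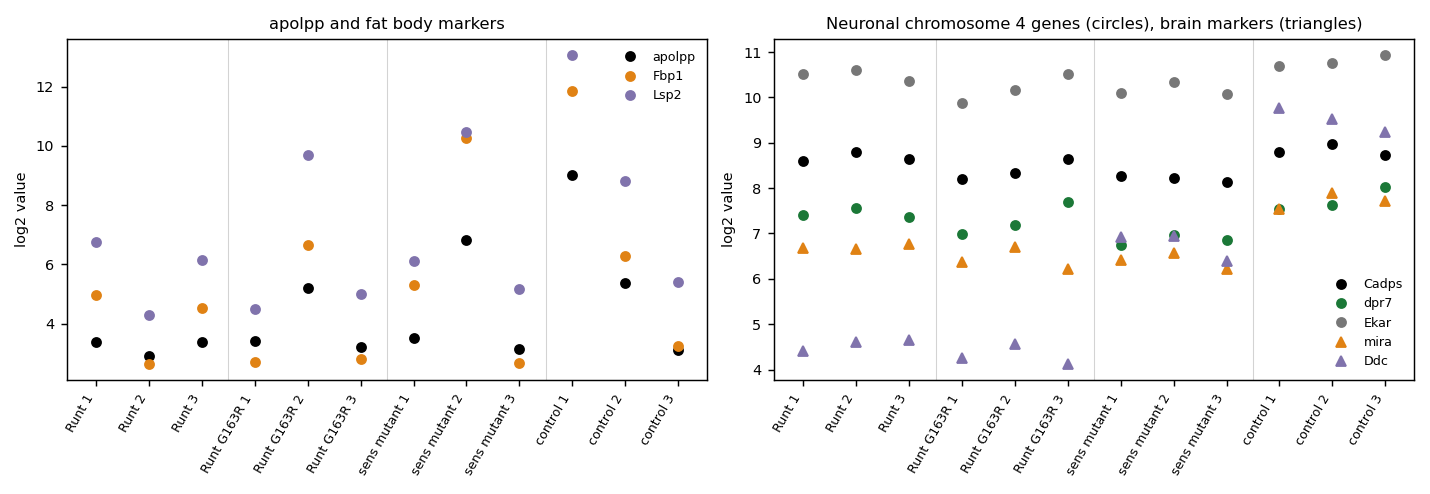
Log2 values on each of the 12 arrays, with vertical lines between groups: at left apolpp with the fat body genes Fbp1 and Lsp2, at right the neuronal chromosome 4 genes Cadps, dpr7 and Ekar (circles) with the brain markers mira and Ddc (triangles). apolpp is high where Fbp1 and Lsp2 are high, and Cadps, dpr7, Ekar, mira and Ddc are all lower on sens mutant than on control arrays.

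Of the 9 transcription and chromatin genes tested, 2 rose and 1 fell, with a median difference of 0.04 that turned to -0.125 with the medians of the tested probe sets set equal. Mitf, a basic helix-loop-helix leucine zipper factor of lysosomal genes, stood at 7.87, 7.78 and 7.65 in sens mutant discs, against 6.84, 7.17 and 7.31 in controls. It rose by 0.66 (SE 0.158, adjusted p = 0.0187), and the mutant arrays were above all other arrays of the series, with Runt discs at 6.97 ± 0.197 and Runt G163R discs at 7.08 ± 0.188 (SD, n = 3 each). Its call was lost in 4 alternatives, among them those without sens mutant replicate 1 (adjusted p = 0.0709), without sens mutant replicate 2 (0.0522) and without control replicate 1 (0.0554).

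Pur-alpha stood at 9.41, 9.47 and 9.18 in sens mutant discs, against 8.67, 8.83 and 8.91 in controls, and rose by 0.55 (SE 0.125, adjusted p = 0.0151). Its call too was lost in 4 alternatives, including those without sens mutant replicate 1 (0.0554), without sens mutant replicate 2 (0.0527) and without control replicate 1 (0.0541). fd102C, a forkhead-domain gene, stood at 2.45, 2.86 and 2.88 in sens mutant discs, against 3.54, 3.52 and 4.10 in controls. It fell by 0.99 (SE 0.152, adjusted p = 0.00222) and was called in all 22 alternatives, but the size is approximate because the mutant arrays are in the floor. In the Runt experiment it was also in the floor, between 2.41 and 2.51, below every control array.

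Other regulators did not pass the test. Sox102F, a Sox-domain factor, differed by 0.65 (SE 0.300, adjusted p = 0.172), with sens mutant arrays at 5.88, 5.81 and 5.77 against 4.73, 5.04 and 5.73 in controls. The zinc-finger homeodomain gene zfh2 differed by -0.59 (adjusted p = 0.112). Its level was 3.48, 2.81 and 3.91 in sens mutant discs, against 3.86, 4.02 and 4.09 in controls, and it was called without sens mutant replicate 3 (-0.84, adjusted p = 0.0252) and with the medians of the tested probe sets set equal (-0.76, adjusted p = 0.0328). Taf3, MED26, Hcf and the Ski-family gene fuss had differences between -0.23 and 0.07.

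None of the 11 signalling and cytoskeletal members tested was called, with 7 differences above 0 and a median of 0.07, which turned to -0.10 with equal medians of the tested probe sets. The TGF-beta family ligand genes differed by 0.76 for myo (SE 0.364, adjusted p = 0.188) and 0.21 for mav, maverick (SE 0.0816, adjusted p = 0.102). mav was tightly set at 11.23, 11.21 and 11.22 in sens mutant discs, against 10.84, 11.07 and 11.12 in controls, without overlap. Without control replicate 3 the difference of myo was 1.15 and was called (adjusted p = 0.0368). bt, the giant muscle protein projectin, differed by 0.44 (adjusted p = 0.269) at levels of 3.99 to 5.32 in this experiment. Crk, the LIM-domain gene Zyx, Ank and the kinase gene Dyrk3 differed by 0.05 to 0.19.

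Among 9 housekeeping members tested, 1 rose and 1, Zip102B, fell. ATPsynbeta stood at 13.56, 13.66 and 13.58 in sens mutant discs, against 13.41, 13.46 and 13.37 in controls. It rose by 0.18 (SE 0.0535, adjusted p = 0.0416) without overlap, but its second probe set differed by 0.07 (adjusted p = 0.658), and the call was lost in 15 of 23 alternatives, with adjusted p values up to 0.897. Among these were all 6 fits that left out 1 array of the sens experiment. Its neighbour CG11076 stood at 10.36, 10.46 and 10.44 in sens mutant discs, against 10.05, 10.11 and 10.31 in controls, and rose by 0.27 (SE 0.0735, adjusted p = 0.0344), a call lost in 10 of 23 alternatives with adjusted p values up to 0.341. For both genes the size shrank to 0.02 and 0.10 when the medians of the tested probe sets were set equal. Mpv17, next to CG11076 on its other side, had a difference of 0.19 that was not called (adjusted p = 0.126).

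The remaining housekeeping genes moved little. The proteasome shuttle gene Rad23, eIF4G1, the eIF4E partner gene 4E-T, the GIGYF translation repressor gene Gyf, the DNA glycosylase gene Tdg and gw differed by -0.20 to 0.06, and none passed the test. gw was called (-0.36, adjusted p = 0.0176) when the medians of the tested probe sets were set equal. The differences of eIF4G1 (0.04) and Ank (0.07) turned negative under some settings, among them that one.

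Among the 15 tested members outside these lists, 3 rose and 2 fell by the brightest probe set. CG11360 stood at 6.84, 6.34 and 6.82 in sens mutant discs, against 4.83, 4.42 and 6.11 in controls, and rose by 1.55 (SE 0.395, adjusted p = 0.025). Its second probe set moved alike, at 4.93, 4.65 and 4.99 against 3.37, 2.95 and 4.25, a rise of 1.33 (SE 0.347, adjusted p = 0.0277). Neither pair of groups overlapped, although control replicate 3 lay near the mutants. Both calls were lost in 5 alternatives, those on the 6 sens arrays alone and without sens mutant replicate 1, sens mutant replicate 3, control replicate 1 or control replicate 2, with adjusted p values up to 0.0873.

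CG33941 stood at 7.20, 6.86 and 6.90 in sens mutant discs, against 5.33, 6.19 and 6.19 in controls, and rose by 1.08 (SE 0.223, adjusted p = 0.00955). Its call was lost in 1 of 23 alternatives, the fit on the 6 sens arrays alone (adjusted p = 0.0613). For CG33978 the second probe set stood at 8.80, 9.11 and 8.63 in sens mutant discs, against 7.38, 7.84 and 7.89 in controls. That probe set rose by 1.15 (SE 0.172, adjusted p = 0.00192) and was called in all 22 alternatives, while the brighter one differed by 0.34 (adjusted p = 0.108).

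CG31999 stood at 7.995, 7.76 and 7.63 in sens mutant discs, against 8.81, 9.09 and 8.77 in controls. It fell by 1.09 (SE 0.235, adjusted p = 0.0116) and was called in all 23 alternatives. CG32017 stood at 7.54, 6.65 and 7.52 in sens mutant discs, against 8.14, 8.18 and 8.38 in controls, and fell by 0.99 (SE 0.231, adjusted p = 0.0163). Its mutant replicate 2 was the lowest array of the series, and the call was lost in the fit on the 6 sens arrays alone (adjusted p = 0.0623). CG1909 differed by -0.91 (SE 0.337, adjusted p = 0.095), with mutants at 6.05, 6.16 and 5.96 and controls at 6.78, 7.31 and 6.82. The groups of CG1909 did not overlap, and it was called in 6 alternatives.

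**Figure D4:**
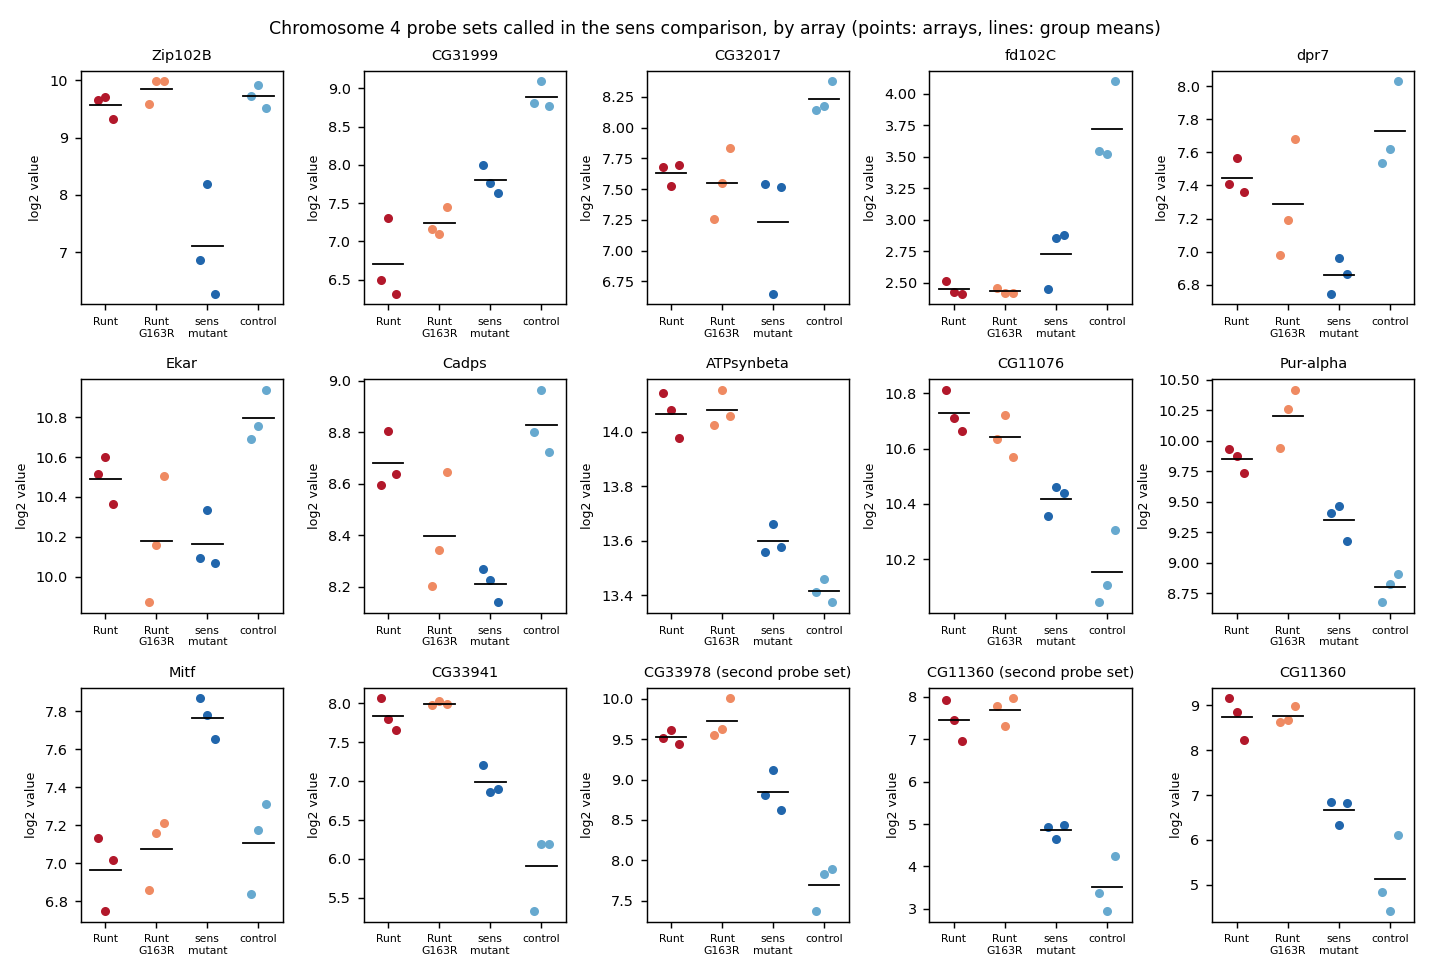
Each panel plots the log2 values of 1 of the 15 chromosome 4 probe sets called in the sens comparison, with a point for each of 3 arrays and a line for the mean in Runt, Runt G163R, sens mutant and control discs, ordered from the largest fall to the largest rise; the vertical axes differ in range and do not start at 0. Mutant arrays stand apart from all other arrays for Zip102B and Mitf, and narrowly for dpr7. The mutant means lie between those of the controls and of the Runt experiment for CG31999, fd102C, CG33941, Pur-alpha, CG11076 and ATPsynbeta. The same holds for both probe sets of CG11360 and the second probe set of CG33978.

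apolpp, the lipophorin apolipoprotein gene of the fat body, was the most variable member. It stood at 3.51, 6.83 and 3.14 in sens mutant discs, against 9.002, 5.38 and 3.11 in controls, a difference of -1.33 that was not called (SE 1.39, adjusted p = 0.532) and turned to 0.25 without control replicate 1. In Runt discs it stood at 3.38, 2.92 and 3.39, against 3.42, 5.19 and 3.21 in Runt G163R discs. The fat body gene Fbp1 was at 5.31, 10.26 and 2.67 in sens mutant discs, against 11.85, 6.30 and 3.23 in controls, and it was highest on the same arrays as apolpp. Of the 3 fat body markers tested none was called in either comparison, and their summed level ranged from 5.61 to 11.7 in sens mutant discs, against 5.85 to 13.6 in controls. Their part in the values of apolpp was not tested.

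The called members were also set beside the Runt experiment. For 11 of the 13 members called by their brightest probe set (84.6%), the Runt G163R mean was nearer the sens mutant mean than the control mean, against 67.2% of all 1587 genes called. The other 2 were Zip102B and Mitf. With the Runt group as reference, Cadps (8.68), dpr7 (7.45) and Ekar (10.49) were instead nearer the control means (8.83, 7.73 and 10.79). Their mutant means were 8.21, 6.86 and 10.17. For Cadps, dpr7, Ekar and CG32017 the mutant mean was the lowest of all groups, so it did not lie between the others. Of the same 13, 6 also separated the 6 arrays of the sens experiment from the 6 of the Runt experiment without overlap (46.2%, against 25.1% of all called genes). For all 6 the mutants lay between the controls and the Runt experiment, as did 71.9% of such genes in the whole table.

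Between the experiments, 15 of 60 probe sets did not overlap (25%, against 23.8% of all), 5 higher in the sens experiment (8.33%, against 9.94%) and 10 lower (16.7%, against 13.9%). CG11360 averaged 5.89 in the sens experiment and 8.75 in the Runt experiment, a difference of -2.85, and CG1909 averaged 6.51 in the sens experiment and 4.11 in the Runt experiment, a difference of 2.41. CG31999 and the brighter probe set of CG33978 were higher in the sens experiment, by 1.37 and 1.06, and CG33941 was lower (difference -1.47). ATPsynbeta averaged 13.51 in the sens experiment and 14.07 in the Runt experiment. Haemocyte markers separated the experiments too: 5 of 6 were lower in the sens experiment without overlap, with Hml averaging 2.88 in the sens experiment and 7.63 in the Runt experiment. The summed level of the list was 6.20 to 8.05 in the sens experiment and 9.71 to 10.9 in the Runt experiment, and its part in these differences was not tested. None of the 6 was called in either comparison. Genotype and experiment cannot be told apart.

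The test of the difference between both comparisons called 8 of 60 member probe sets (13.3%, against 10.1% of all). They were Zip102B, fd102C, dpr7, Ekar and Cadps, lower in the sens comparison (5 of 60, 8.33%, against 3.35% of all), and CG33941, Pur-alpha and the second probe set of CG33978, higher in it (3 of 60, 5%, against 6.74% of all). Cadps, Ekar and dpr7 had differences of 0.28, 0.31 and 0.16 with Runt, none called, against -0.62, -0.63 and -0.87 with the sens genotype. Pur-alpha had -0.36 and 0.55. The count fell to 4 without Runt replicate 2 or without sens mutant replicate 1, and to 5 without Runt G163R replicate 1, without Runt G163R replicate 2 or without sens mutant replicate 3, while it was 12 without control replicate 3.

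A list of Pof and heterochromatin factors encoded on other chromosomes was also followed. Whether each of them acts on chromosome 4 was not tested. Of 16 listed, 13 had a named probe set, and Su(var)3-9, egg and G9a had none. None of the 13 was called in the Runt comparison. In the sens comparison 3 of the 13 were called, against 19.3% of all genes, 2 higher and 1 lower. The median difference was 0.08, and -0.09 with equal medians of the tested probe sets. HP1c, an HP1 family member, stood at 10.37, 10.51 and 10.36 in sens mutant discs, against 10.17, 10.25 and 10.06 in controls, and rose by 0.25 (adjusted p = 0.0448). Kdm4A, a histone demethylase, rose by 0.36 (adjusted p = 0.0418), and wde, the cofactor of the methyltransferase Eggless, fell by 0.20 (adjusted p = 0.0198). Pof itself was at 7.24, 6.97 and 7.56 in sens mutant discs, against 6.50, 6.85 and 7.08 in controls, and was not called (0.45, SE 0.178, adjusted p = 0.119). In the Runt experiment Pof was higher than on any sens array, at 7.59 to 7.92. The HP1a gene differed by -0.01 (adjusted p = 0.886).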

How the data were processed

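RNA of 12 samples was measured on one-colour arrays. The deposited values were taken as log2 from their range. Tools named in the submitters' processing notes are MAS5, GCRMA and affy, without roles, so the background correction and normalization behind the values are not known here. Probe sets were named through the platform annotation and placed through RefSeq Release 6 plus ISO1 MT, for names, chromosome and order only. Of 18952 probe sets, 183 are controls, 13647 have 1 gene, 402 several and 4720 none named.

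The filter kept 11470 probe sets whose value passed the array's 40th percentile on 3 or more of the 12 arrays. A model of 4 group means was fitted to all of them with limma 3.58.1 in R 4.3.3 (lmFit, eBayes with trend). Tests were two-sided, with Benjamini-Hochberg adjustment over all kept probe sets, and a call is an adjusted p under 0.05. SE is that of the moderated fit. The model was tested on simulated data. For arrays, their number limits the precision.

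Each gene is represented by its brightest probe set. Named were all called members, the 6 largest differences in each direction of each comparison, the brightest and dimmest 3, and 21 fixed names, of which 16 had a probe set. Members, lists and names were chosen with earlier results of these data known. PMCA and Asator stand in 2 lists. Any further gene was picked with its values known. Same-numbered replicates did not deviate together in every pair (correlations -0.42 to 0.256), so the numbers were not taken to pair samples. Filter, normalization, variance model, weights, arrays, block and probe set summary were varied.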

Additional observations from a re-analysis of the deposited data

Results flagged for a closer look

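For 8 chromosome 4 probe sets the difference between sens mutant and control discs itself differed from that between Runt and Runt G163R discs, by limma's test of the difference between the comparisons. The values below are sens comparison minus Runt comparison (log2), with adjusted p. They were -2.33 for Zip102B (0.0265), -1.03 for dpr7 (0.0378), -1.01 for fd102C (0.0177), -0.94 for Ekar (0.0209) and -0.90 for Cadps (0.0094). They were 1.35 for the second probe set of CG33978 (0.00857), 1.24 for CG33941 (0.0361) and 0.91 for Pur-alpha (0.0127). fd102C was in the floor on all 6 arrays of the Runt experiment, where no fall could be measured, so its value restates the fall in sens mutant discs. Groups of 3 arrays are too small for a check of single arrays that depart from their group.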

How the results depend on the processing

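Up to 23 alternatives were tried for each result, of which setting the medians of the tested probe sets equal was chosen after the data were seen. The number of chromosome 4 probe sets called in the sens comparison was 8 to 17 with 1 array left out, 23 with those medians set equal, and within 1.5 times of 15 otherwise. With those medians equal, the median difference of the members moved to -0.188, and with the filter at the 60th percentile to 0.0572. The number called in the Runt comparison was 2 with array weights and 0 in all other alternatives. The number called for the difference between the comparisons was 4 to 12 with 1 array left out, 18 with array weights, 13 with equal medians and 4 with the replicate block. The block, with replicate numbers that were not shown to pair samples, gave 12 calls in the sens comparison and 0 in the Runt comparison. The difference of apolpp ranged from -2.70 to 0.25 with 1 array left out. That of eIF4G1 was -0.018 after a second quantile normalization, -0.126 with equal medians, and -0.024 to 0.167 with 1 array left out. That of Ank was -0.102 with equal medians, -0.003 as a mean over probe sets, and -0.015 to 0.112 with 1 array left out. Of all 51 members tested, 19 changed sign under 1 or more of 22 settings, 11 of them downwards with equal medians; none of the called genes did. Zip102B, dpr7, CG31999, fd102C and the second probe set of CG33978 were called in every alternative run. The fit on 6 arrays was not run for the difference between the comparisons, nor the probe set mean for counts. With no filter, 13 member probe sets were called in the sens comparison. Sizes are approximate for groups in the floor, as with fd102C. The causes of these shifts were not tested.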

Other observations

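Probe sets of 1 gene did not always follow each other between the experiments. For CG33978 the brighter probe set averaged 10.62 in the sens experiment and 9.56 in the Runt experiment, while the second averaged 8.27 in the sens experiment and 9.63 in the Runt experiment, both without overlap. For PMCA, the plasma membrane calcium pump, the second probe set averaged 10.27 in the sens experiment and 11.41 in the Runt experiment without overlap, and the brightest overlapped at 11.33 and 11.46. For Cadps the second probe set averaged 5.43 in the sens experiment and 7.20 in the Runt experiment without overlap, and the brighter one was at 8.52 and 8.54. The second probe set of ATPsynbeta overlapped between the experiments, at 11.99 in the sens experiment and 12.23 in the Runt experiment.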
